A study of Mus musculus with 12 samples.

Results

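The 8 genes described here encode scavenger receptors of macrophages: Cd36, Scarb1, Msr1, Marco, Olr1, Cd68, Cd163 and Stab1. They were taken from a list by gene symbol, which was chosen with earlier results of these data known. Each was read by 1 probe set, so all 8 were among the 22180 genes tested from a table of 41345 probe sets. The values came from 12 single-channel microarrays of mouse primary macrophages, 3 for each of 4 groups. KO TAMs were Cd36-knockout macrophages that had shared a culture with the mouse myeloma line 5TGM1 for 72 h, which makes them a model of tumour-associated macrophages (TAMs). WT TAMs were wild-type macrophages in the same co-culture. KO macrophages and WT macrophages were the same genotypes without recorded co-culture, and no culture time was recorded for them, so a difference between TAMs and macrophages may include time in culture. The labels leave out the tissue of origin, the age and strain of the mice, how Cd36 was deleted and how myeloma cells were taken away before RNA was made. The question was whether other scavenger receptors were higher where Cd36 had been lost.

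Scavenger receptors are a group of membrane proteins of unrelated structure that bind and take up polyanionic ligands such as oxidised or acetylated lipoproteins, bacterial surfaces and dying cells. CD36 and SR-BI, the product of Scarb1, belong to class B: CD36 carries fatty acids and oxidised lipoprotein into cells, and SR-BI exchanges cholesterol with high-density lipoprotein. SR-A1 (Msr1) and MARCO are collagen-containing class A receptors that take up modified lipoproteins and bacteria. LOX-1 (Olr1) is a lectin-like receptor of oxidised lipoprotein known mainly from endothelium, CD68 (macrosialin) is a glycoprotein of macrophage lysosomes, stabilin-1 (Stab1) clears matrix fragments and apoptotic cells, and CD163 takes up haptoglobin-haemoglobin complexes.

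Levels are log2 RMA intensities, and a difference is the log2 level in the first-named group minus that in the second, ± its standard error from limma with 3 arrays a group. Means are given ± SD. Calls, and the words rose and fell, need an adjusted limma p under 0.05 (Benjamini-Hochberg, all 22180 genes). An exact two-sided permutation test of 3 against 3 arrays cannot give a p below 0.1, and gave 0.1 wherever the arrays of 2 groups did not overlap. The labels do not say that replicates came from separate animals or cultures, so p measures only the spread between these arrays. On bulk arrays, fewer cells of a type and less RNA per cell cannot be told apart.

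The arrays differed between the genotypes in more than Cd36. Xist, which silences an X chromosome in female cells, read 3.91 to 4.35 on the 6 KO arrays and 11.08 to 11.32 on the 6 WT arrays. The Y-linked gene Uty read 9.71 to 9.99 on KO arrays and 3.27 to 3.91 on WT arrays. Genotype and this sex-linked pattern cannot be told apart in any comparison of KO with WT. A list of 8 stromal markers, of which Postn, Col1a1 and Col1a2 were called lower in KO in both cultures, also moved with genotype: its summed level (log2) was 9.23 to 10.58 on KO TAM, 11.29 to 12.61 on WT TAM, 8.43 to 8.46 on KO macrophage and 10.59 to 10.76 on WT macrophage arrays. In KO TAMs 5 of these 8 markers were lower than in WT TAMs, in KO macrophages 4 of 8 were lower than in WT macrophages, and 2 of 8 were higher in TAMs than in macrophages in each genotype. Not all 8 moved alike. Dcn averaged 7.69 in KO TAMs and 7.05 in WT TAMs, which was not called, and 5.92 in KO and 7.28 in WT macrophages. Lum read 2.86 to 3.38 on all arrays. Of 7 macrophage markers all were bright on every array (9.12 to 13.2), Mertk was higher in KO in both cultures, and Fcgr1 was lower in KO macrophages than in WT macrophages (-1.003 ± 0.08). The 4 adipocyte markers lay at 3.35 to 4.94 on all arrays with none called. The summed level of 3 platelet markers was 7.37 to 7.83 on KO TAM, 7.05 to 7.65 on WT TAM, 7.88 to 7.96 on KO macrophage and 7.49 to 7.57 on WT macrophage arrays, with Gp9 called lower in TAMs of both genotypes and Ppbp above its macrophage mean without passing (1.0004 ± 0.46 in KO and 1.37 ± 0.46 in WT cells). The summed level of 9 myeloma and plasma cell markers was 12.64 to 12.82 on KO TAM, 12.39 to 12.42 on WT TAM, 12.496 to 12.53 on KO macrophage and 12.33 to 12.396 on WT macrophage arrays. Of these 9, Slamf7 was higher in KO TAMs than in WT TAMs (0.38), Sdc1 was lower in KO macrophages than in WT macrophages (-1.19), Xbp1 was lower in TAMs of both genotypes, and Jchain read 3.28 to 3.84 on all arrays. The summed level of 4 B cell markers was 6.88 to 8.52 on KO TAM, 6.63 to 7.13 on WT TAM, 9.17 to 9.28 on KO macrophage and 8.09 to 8.22 on WT macrophage arrays. That of 6 endothelial markers was 8.17 to 8.72 on KO TAM, 7.97 to 8.42 on WT TAM, 9.38 to 9.45 on KO macrophage and 8.79 to 8.94 on WT macrophage arrays. A summed level adds linear intensities, so it mostly follows the brightest gene of its list. That was Slamf7 for the myeloma list (group means 11.82 to 12.38) and Cd79b for the B cell list (6.04 to 9.10). Cd79a, Ms4a1 and Pax5 averaged 3.40 to 4.40 in every group. In the endothelial list Pecam1 was brightest, except in WT TAMs, where Kdr was (7.09). Pecam1 was higher (1.71) and Kdr lower (-1.27) in KO TAMs than in WT TAMs, and the B cell marker Cd79b was higher (1.498). The summed level of 6 dendritic cell markers was 7.37 to 7.72 on KO TAM, 7.695 to 8.19 on WT TAM, 7.59 to 7.65 on KO macrophage and 7.83 to 7.95 on WT macrophage arrays, with Itgax lower in KO in both cultures (-1.46 in TAMs and -1.49 in macrophages) and Xcr1 higher in KO macrophages (0.50). The part of these markers in the results was not tested. KO TAM 1 and WT TAM 2 stood apart from their groups: weights estimated over all genes were 0.266 for KO TAM 1 and 0.329 for WT TAM 2, the lowest of the 12 arrays, the others lying between 0.658 and 2.52. For the 8 receptors, a call that changes without both is also given without them.

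None of the 7 receptors other than Cd36 was called higher in KO cells when all arrays had equal weight. In KO TAMs against WT TAMs, 0 of 7 rose and 1 fell, Msr1, where 12.2% of all genes were called, 5.03% higher and 7.19% lower. In KO macrophages against WT macrophages, 0 of 7 rose and 2 fell, Msr1 and Olr1, where 11.3% of all genes were called, 5.19% higher and 6.13% lower. Msr1 was the 1 of 7 lower in both cultures, as 3.8% of all genes were, and 0 were higher in both, as 2.06% were. At an unadjusted limma p under 0.05 the counts were 0 higher and 2 lower in TAMs, where 25.1% of all genes passed, and 0 higher and 3 lower in macrophages, where 24.7% passed. The median difference of the 7 was -0.14 in TAMs and -0.16 in macrophages, against medians over all genes of 0.02 and 0.04. With KO TAM 1 and WT TAM 2 left out, 1 of 7 rose in KO TAMs, Marco, and 4 fell, Scarb1, Msr1, Cd68 and Stab1, where 20.2% of all genes were called. For Marco KO TAM 1 was the lowest of its group and WT TAM 2 the highest. For the 4 that fell KO TAM 1 was the highest of its group and WT TAM 2 the lowest. Leaving these arrays out thus widens each difference by itself. In the same fit 0 rose and 3 fell in KO macrophages, Msr1, Olr1 and Stab1, where 20.6% of all genes were called.

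With all arrays at equal weight, every receptor called between TAMs and macrophages was higher in TAMs. In KO TAMs against KO macrophages, 2 of 7 rose, Msr1 and Cd68, where 6.53% of all genes were called, 2.9% higher. In WT TAMs against WT macrophages, 3 of 7 rose, Msr1, Cd68 and Stab1, where 11.5% of all genes were called, 5.89% higher. Msr1 and Cd68 thus rose in both genotypes, as 1.82% of all genes did, and 2.2% of all genes fell in both. None of the 7 fell, where 3.63% of all genes were called lower in KO cells and 5.66% in WT cells. At an unadjusted limma p under 0.05, 4 were higher and 0 lower in KO cells, where 20.1% of all genes passed, and 4 higher and 2 lower in WT cells, where 23.5% passed. No receptor was called in the interaction, which is the co-culture difference of KO cells less that of WT cells and in which 0.194% of all genes were called, 0.104% above 0 and 0.0902% below. At an unadjusted limma p under 0.05, 2 of 7 passed, Msr1 and Olr1, both above 0, where 9.6% of all genes passed.

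**Figure D1:**
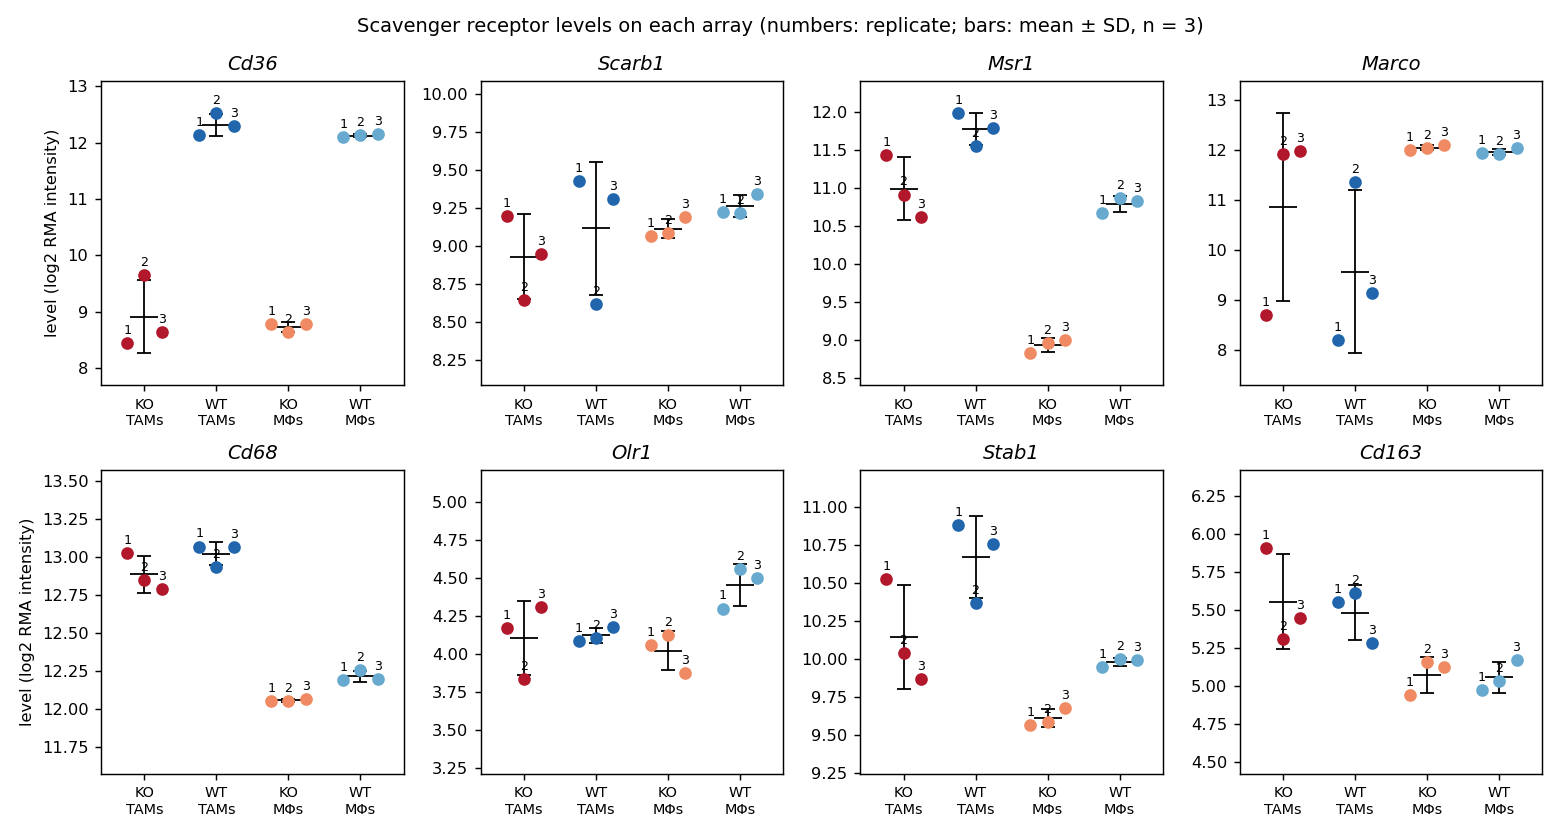
Level (log2 RMA intensity) of each of the 8 receptors on each of the 12 arrays by group, with the replicate number beside each point, bars for mean ± SD of 3 arrays, and an axis of its own in each panel. Cd36 is lower on all 6 KO arrays than on every WT array, Msr1 is lowest on the 3 KO macrophage arrays, and Marco is spread from 8.20 to 11.97 over the TAM arrays.

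**Figure D2:**
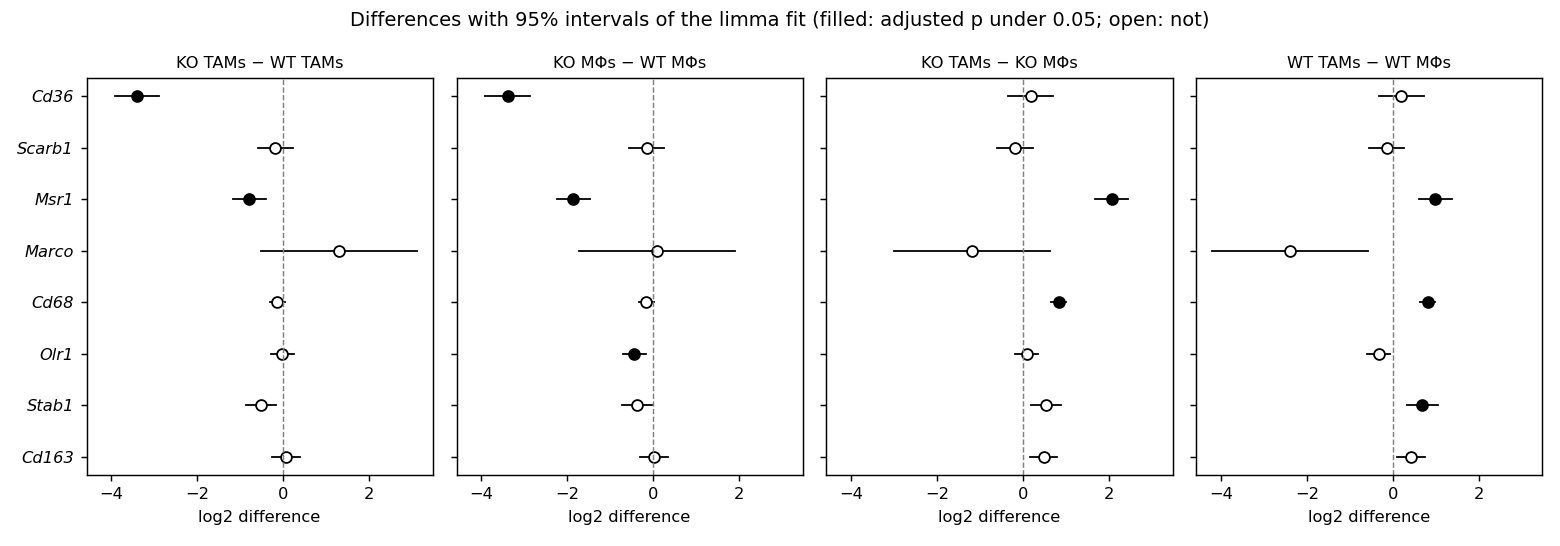
Log2 difference of each receptor in 4 comparisons (points) with the 95% interval of the limma fit (lines), filled where the adjusted p was under 0.05. Besides Cd36, the filled points left of 0 are Msr1 in both genotype comparisons and Olr1 in macrophages.

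The promoters of Cd36 and of 3 receptors that differ in their co-culture pattern are shown, since Cd68 and Stab1 rose in WT TAMs and Marco read lower there. RefSeq promoters of build GRCm38.p6 were found for 6 of the 8 genes. Each line gives the 250 bases before the annotated transcript start, 5′ to 3′ on the gene's minus strand, with motif matches in capitals. They lie at chr5:17835897-17836146 (Cd36, inside the gene's annotated span), chr11:69666171-69666420 (Cd68), chr14:31168642-31168891 (Stab1) and chr1:120505025-120505274 (Marco).
Cd36: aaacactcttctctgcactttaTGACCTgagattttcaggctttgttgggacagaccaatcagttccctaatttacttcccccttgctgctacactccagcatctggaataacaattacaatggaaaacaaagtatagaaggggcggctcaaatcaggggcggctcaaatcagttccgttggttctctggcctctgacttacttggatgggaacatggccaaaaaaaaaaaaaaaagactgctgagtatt
Cd68: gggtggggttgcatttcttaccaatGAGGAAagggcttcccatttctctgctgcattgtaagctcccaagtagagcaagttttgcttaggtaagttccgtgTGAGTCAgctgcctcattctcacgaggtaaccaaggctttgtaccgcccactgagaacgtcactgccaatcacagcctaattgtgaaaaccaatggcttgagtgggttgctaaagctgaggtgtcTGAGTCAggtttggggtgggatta
Stab1: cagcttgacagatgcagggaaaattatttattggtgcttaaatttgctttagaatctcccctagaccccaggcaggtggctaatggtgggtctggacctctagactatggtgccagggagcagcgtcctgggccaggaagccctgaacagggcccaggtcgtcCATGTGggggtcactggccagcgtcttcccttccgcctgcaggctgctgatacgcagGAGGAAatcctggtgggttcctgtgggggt
Marco: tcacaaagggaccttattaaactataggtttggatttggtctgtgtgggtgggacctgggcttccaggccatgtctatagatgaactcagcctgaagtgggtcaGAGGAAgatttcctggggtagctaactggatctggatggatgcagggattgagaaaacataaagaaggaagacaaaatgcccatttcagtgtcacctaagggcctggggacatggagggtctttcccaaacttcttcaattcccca
The motifs, chosen after the values were seen and searched on both strands, were the AP-1 site TGAGTCA, the PU.1 core GAGGAA, the MiT-family E-box CATGTG and the nuclear receptor hexamer AGGTCA. They occur in 4.46%, 23.3%, 12.3% and 14% of the 32851 promoter windows of the same length. The Cd36 window held 1 AGGTCA match, on the opposite strand at -228 to -223 from the start. Cd68 held 2 TGAGTCA matches, at -149 to -143 and -24 to -18, and 1 GAGGAA match. Stab1 held 1 GAGGAA and 1 CATGTG match, and Marco 1 GAGGAA match. Of the promoters searched but not shown, Olr1 held 1 TGAGTCA, 1 GAGGAA and 1 AGGTCA match, and Cd163 held 0 matches of each motif. These are matches of letters and not measured binding.

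Cd36, the targeted gene, read 8.45, 9.66 and 8.64 on KO TAM arrays 1, 2 and 3, against 12.14, 12.53 and 12.29 on WT TAM arrays. It read 8.79, 8.63 and 8.78 on KO macrophage arrays, against 12.10, 12.13 and 12.15 on WT macrophage arrays. Every KO array was thus below every WT array, and KO TAM 2 was the highest of the 6 KO arrays. The fitted KO intensity was 9.44% of WT in TAMs and 9.53% in macrophages. The signal left on KO arrays was still above the median over all genes of the mean level, 5.34. Neither WT TAMs against WT macrophages (0.19 ± 0.24, adjusted p = 0.706) nor KO TAMs against KO macrophages (0.18 ± 0.24, adjusted p = 0.749) passed. The order of the group means was WT TAMs, WT macrophages, KO TAMs and KO macrophages, and only the step between the genotypes exceeded the spread. The stretch of the Cd36 transcript under the probe set is not stated by the labels.

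Scarb1, the other class B receptor, read 9.20, 8.64 and 8.95 on KO TAM arrays, against 9.43, 8.62 and 9.31 on WT TAM arrays. It read 9.07, 9.09 and 9.19 on KO macrophage arrays, against 9.23, 9.22 and 9.34 on WT macrophage arrays. The TAM groups overlapped, with replicate 2 lowest in both, while the macrophage groups did not. Neither genotype difference passed, at -0.19 ± 0.19 in TAMs (adjusted p = 0.607) and -0.15 ± 0.19 in macrophages (adjusted p = 0.69). With the spread shared over all groups, the 95% intervals ran from -0.60 to 0.22 in TAMs and from -0.56 to 0.26 in macrophages. In macrophages this puts a KO level above 1.20 times that of WT outside the interval. The SD was 0.28 in KO TAMs and 0.44 in WT TAMs, against 0.07 in KO and in WT macrophages. The shared spread is thus too small for the TAM arrays, and no upper limit for KO TAMs is drawn from it. Scarb1 without KO TAM 1 and WT TAM 2 was called lower in KO TAMs (-0.57, adjusted p = 0.00482), and so it was with array weights (-0.53, adjusted p = 0.0202). Co-culture differences were -0.19 in KO and -0.15 in WT cells, and neither passed.

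Msr1, the class A receptor SR-A1, had the largest called genotype difference of the 7. It read 8.82, 8.96 and 9.001 on KO macrophage arrays, against 10.67, 10.86 and 10.83 on WT macrophage arrays. It was 3.63-fold lower in KO macrophages than in WT macrophages (-1.86 ± 0.18, adjusted p = 0.000132), with no overlap between the groups, as in 38.5% of all genes. On KO TAM arrays it read 11.44, 10.91 and 10.62, against 11.98, 11.56 and 11.79 on WT TAM arrays. These groups did not overlap either, as in 24.6% of all genes, and Msr1 was 1.73-fold lower in KO TAMs than in WT TAMs (-0.79 ± 0.18, adjusted p = 0.013). That call was lost without WT TAM 1 (-0.68, adjusted p = 0.052) and when only the TAM arrays were fitted (adjusted p = 0.109).

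Msr1 was higher in TAMs than in macrophages in both genotypes, 4.18-fold in KO cells (2.06 ± 0.18, adjusted p = 7.2e-05) and 1.99-fold in WT cells (0.99 ± 0.18, adjusted p = 0.00351). The KO TAM mean of 10.99 ± 0.42 was close to the WT macrophage mean of 10.79 ± 0.11, and the order of means was WT TAMs (11.78 ± 0.21), KO TAMs, WT macrophages and KO macrophages (8.93 ± 0.09), with KO TAM and WT macrophage arrays overlapping. The KO minus WT co-culture difference was 1.07 ± 0.25, with an adjusted p of 0.132. Without KO TAM 1 it was 0.85 (adjusted p = 0.0415), without KO TAM 1 and WT TAM 2 together 0.74 (adjusted p = 0.0246), and with array weights 0.93 (adjusted p = 0.0149). The stromal marker mean was 5.67 to 6.85 on KO TAM, 7.23 to 8.38 on WT TAM, 5.18 to 5.27 on KO macrophage and 6.78 to 6.89 on WT macrophage arrays, so like Msr1 it was lower in KO in each culture, while the KO TAM arrays lay across and below the WT macrophage arrays. Its part in the Msr1 differences was not tested. On KO TAM arrays 1, 2 and 3 the stromal mean was 6.85, 6.46 and 5.67, the same order as Msr1. On WT TAM 2, which had the highest stromal mean, Msr1 was the lowest of its group.

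Marco, the other class A receptor on the list, varied little in macrophages and widely in TAMs. It read 11.9999, 12.05 and 12.10 on KO macrophage arrays, against 11.94, 11.92 and 12.04 on WT macrophage arrays. With the spread shared over all groups the difference was 0.08 ± 0.83, and with only the macrophage arrays fitted its 95% interval ran from -0.07 to 0.24. On KO TAM arrays 1, 2 and 3 Marco read 8.70, 11.93 and 11.97, against 8.20, 11.36 and 9.14 on WT TAM arrays. KO TAM 2 and 3 were thus near the macrophage level, WT TAM 2 was between, and KO TAM 1, WT TAM 1 and WT TAM 3 were far below. No Marco comparison passed with all arrays at equal weight: KO TAMs against WT TAMs gave 1.30 ± 0.83 (adjusted p = 0.377), KO TAMs against KO macrophages -1.18 ± 0.83 (adjusted p = 0.493) and WT TAMs against WT macrophages -2.40 ± 0.83 (adjusted p = 0.0928).

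The Marco result turned on single arrays. The difference of KO TAMs from WT TAMs was 0.61 without WT TAM 1 (adjusted p = 0.749), 0.77 without KO TAM 2 (adjusted p = 0.704) and 0.75 without KO TAM 3 (adjusted p = 0.694). It was 2.20 without WT TAM 2 (adjusted p = 0.0923) and 2.38 without KO TAM 1 (adjusted p = 0.0265). With array weights it was 2.70 (adjusted p = 0.00359), and without KO TAM 1 and WT TAM 2 together it was 3.28 (adjusted p = 1.02e-05). In that last fit 20.2% of all genes were called in KO TAMs against WT TAMs, and Marco fell by 3.29 in WT TAMs against WT macrophages (adjusted p = 5.02e-06), while KO TAMs against KO macrophages gave -0.10 (adjusted p = 0.85) and the interaction was 3.19 (adjusted p = 0.000313). KO TAM 1 was the lowest KO TAM array in Marco and WT TAM 2 the highest WT TAM array. Leaving out this pair, chosen with earlier results known, widens the difference by itself, so these p values cannot be read as support. Array weights, lowest on the same arrays, act in the same direction. The fit without the pair sets KO TAM 2 and 3 against WT TAM 1 and 3, and replicate 1 was lowest in both TAM groups. The difference of WT TAMs from WT macrophages was -1.71 without WT TAM 1 (adjusted p = 0.291) and -2.18 without WT TAM 3 (adjusted p = 0.214). It was called without WT TAM 2 alone (-3.29, adjusted p = 0.0177), without KO TAM 1 alone (-2.40, adjusted p = 0.0156) and with array weights (-2.97, adjusted p = 0.00152). Marco and Stab1 ran opposite to each other over the 12 arrays (Pearson r = -0.90), which share their groups. KO TAM 1, low in Marco, had the highest stromal marker mean of its group (6.85), and so did WT TAM 2, high in Marco (8.38).

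**Figure D3:**
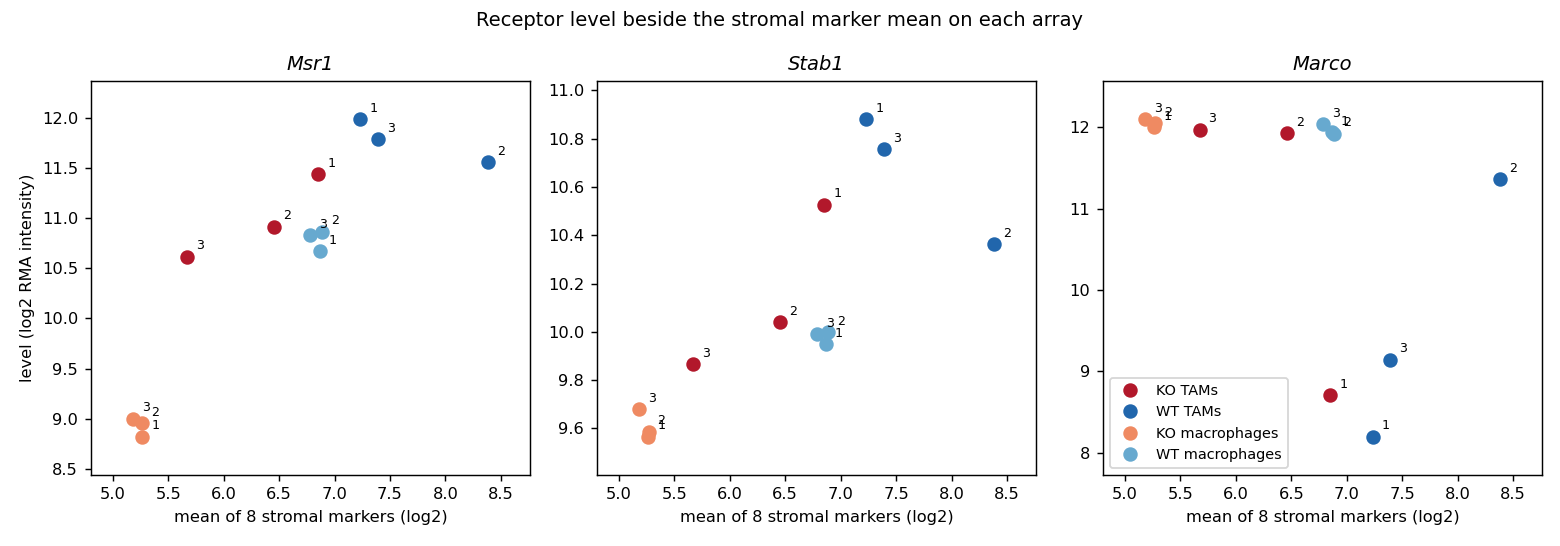
Level of Msr1, Stab1 and Marco (log2 RMA intensity) beside the mean log2 level of 8 stromal markers on the same array, for the 12 arrays with their replicate numbers. Low Marco was seen on KO TAM 1, WT TAM 1 and WT TAM 3, and WT TAM 2 has the highest stromal mean, 8.38.

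Olr1, which encodes LOX-1, was dim on every array. It read 4.17, 3.84 and 4.31 on KO TAM arrays, against 4.09, 4.11 and 4.18 on WT TAM arrays, which overlapped (-0.02 ± 0.12, adjusted p = 0.952). On KO macrophage arrays it read 4.06, 4.12 and 3.88, against 4.30, 4.56 and 4.50 on WT macrophage arrays. The fall in KO macrophages was -0.43 ± 0.12 (adjusted p = 0.042). This call was lost without any 1 of WT macrophage 2 or 3, KO macrophage 1, 2 or 3, or WT TAM 1 or 3 (adjusted p up to 0.147). Olr1 was the only one of the 8 left out by a filter on dim genes at a mean level of 5. Its co-culture differences were 0.08 in KO cells (adjusted p = 0.774) and -0.33 in WT cells (adjusted p = 0.119).

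Cd68, the lysosomal glycoprotein used as a macrophage marker, rose in both genotypes. It read 13.02, 12.84 and 12.79 on KO TAM arrays, against 12.05, 12.05 and 12.06 on KO macrophage arrays. On WT TAM arrays it read 13.07, 12.93 and 13.06, against 12.19, 12.25 and 12.19 on WT macrophage arrays. All TAM arrays were above all macrophage arrays. The rise was 1.78-fold in KO cells (0.83 ± 0.08, adjusted p = 0.000235) and 1.75-fold in WT cells (0.81 ± 0.08, adjusted p = 0.000144), and both calls held under every alternative run. The interaction was 0.02 ± 0.12, with a 95% interval from -0.23 to 0.28. Genotype differences were -0.14 in TAMs (adjusted p = 0.351) and -0.16 in macrophages (adjusted p = 0.268), with upper 95% bounds of 0.05 and 0.02. The TAM bound rests on the shared spread, which may be too small for TAM arrays. Cd68 without KO TAM 1 and WT TAM 2 was called lower in KO TAMs (-0.25, adjusted p = 0.0372).

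Stab1, the stabilin-1 gene, read 10.53, 10.04 and 9.86 on KO TAM arrays, against 10.88, 10.36 and 10.76 on WT TAM arrays. On KO macrophage arrays it read 9.57, 9.59 and 9.68, against 9.95, 9.998 and 9.99 on WT macrophage arrays. KO TAM 1 lay above WT TAM 2, so the TAM groups overlapped, and the macrophage groups did not. KO TAMs against KO macrophages gave 0.53 ± 0.16 (adjusted p = 0.0751), which was called without WT TAM 2 (adjusted p = 0.0393) and without KO TAM 3 (0.67, adjusted p = 0.0306), and was 0.34 without KO TAM 1 and WT TAM 2 (adjusted p = 0.0295). In WT TAMs Stab1 rose 1.61-fold over WT macrophages (0.69 ± 0.16, adjusted p = 0.0166). That call was lost without any 1 of WT macrophage 1, 2 or 3 or WT TAM 1 or 3 (adjusted p up to 0.0691).

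Both genotype differences of Stab1 were below 0 and just missed or missed the threshold, at -0.52 ± 0.16 in TAMs (adjusted p = 0.0561) and -0.37 ± 0.16 in macrophages (adjusted p = 0.18). In TAMs the difference was called lower in 8 of 23 alternatives, among them without KO TAM 1 (-0.72, adjusted p = 0.0038) and without WT TAM 2 (-0.67, adjusted p = 0.0176). Without both arrays it was -0.87 (adjusted p = 0.000111). KO TAM 1 was the highest of its group and WT TAM 2 the lowest, so leaving either out widens the difference by itself. These p values cannot be read as support. The interaction was -0.15 ± 0.23, and -0.50 (adjusted p = 0.0335) without both arrays. In macrophages Stab1 was called lower in KO when only the macrophage arrays were fitted (adjusted p = 0.00613) and without KO TAM 1 and WT TAM 2 (adjusted p = 0.00604). The stromal marker mean was lower on all KO macrophage than on all WT macrophage arrays, as it was for Msr1, and its part here was not tested.

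Cd163 gave no call. It read 5.91, 5.31 and 5.45 on KO TAM arrays, against 5.56, 5.61 and 5.28 on WT TAM arrays. On KO macrophage arrays it read 4.94, 5.16 and 5.12, against 4.97, 5.03 and 5.17 on WT macrophage arrays. The genotypes overlapped in both cultures, with differences of 0.07 ± 0.15 in TAMs (95% interval -0.25 to 0.39) and 0.02 ± 0.15 in macrophages (-0.30 to 0.34). The SD was 0.31 in KO TAMs and 0.18 in WT TAMs, against 0.12 in KO and 0.10 in WT macrophages. The shared spread may thus be too small for TAMs, and no upper limit for KO TAMs is drawn from it. Every TAM array was above every macrophage array, by 0.48 in KO cells (adjusted p = 0.0783) and 0.43 in WT cells (adjusted p = 0.0904). The first was called without KO TAM 2 (0.60, adjusted p = 0.0428), and the second without KO TAM 1 (adjusted p = 0.0198).

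Several groups did not overlap where no call was made. Of the 7 receptors other than Cd36, 1 did not overlap between KO TAMs and WT TAMs, where 24.6% of all genes did not, and 5 did not overlap between KO macrophages and WT macrophages, where 38.5% did not. All 5 of these, Scarb1, Msr1, Cd68, Olr1 and Stab1, were lower in KO. Between TAMs and macrophages 5 of 7 did not overlap in KO cells, where 26.3% of genes did not, and 6 of 7 in WT cells, where 30.1% did not. Over the 12 arrays Msr1, Stab1 and Cd68 varied together (Pearson r of 0.90 for Msr1 with Stab1, 0.84 for Msr1 with Cd68 and 0.86 for Stab1 with Cd68), as a description of arrays that share 4 groups.

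Other scavenger receptors were read from a list of 19 genes in classes A, B and E to L. In KO TAMs 1 of 19 was higher than in WT TAMs and 4 were lower, where 12.2% of all genes were called. In KO macrophages 0 were higher and 3 lower than in WT macrophages, where 11.3% were called. At an unadjusted p under 0.05 the counts were 3 higher and 4 lower in TAMs (25.1% of all genes), and 1 higher and 7 lower in macrophages (24.7% of all genes). With KO TAM 1 and WT TAM 2 left out the calls were 2 higher and 6 lower in TAMs (20.2% of all genes), and 1 higher and 7 lower in macrophages (20.6% of all genes). Newly called in KO TAMs were Scarf1, higher (0.42, adjusted p = 0.0282), and Mrc1 (-1.09, adjusted p = 0.00129) and Cxcl16 (-0.81, adjusted p = 0.00012), both lower. In the same fit Scarf1 was lower in KO macrophages (-0.37, adjusted p = 0.0185), as were Cxcl16 (-0.73) and Cd44 (-0.59). In Scarf1 KO TAM 1 was the lowest of its group and WT TAM 2 the highest, and in Mrc1 and Cxcl16 the reverse held. Leaving this pair out thus widens the TAM differences of Scarf1, Mrc1 and Cxcl16 by itself. The p values of these TAM differences therefore cannot be read as support. The list median was 0.04 in TAMs and -0.16 in macrophages, against 0.02 and 0.04 over all genes. The gene called higher with all arrays at equal weight was Cd5l, which encodes a macrophage protein known as AIM that enters cells through CD36. It read 11.38, 11.87 and 11.98 on KO TAM arrays, against 11.10, 11.29 and 10.36 on WT TAM arrays (0.83 ± 0.21, adjusted p = 0.0258). Its groups did not overlap, and the call did not survive leaving out WT TAM 3, or KO TAM 2 or 3 (adjusted p up to 0.0971). In macrophages Cd5l averaged 11.40 ± 0.07 in KO and 10.70 ± 0.15 in WT cells, and did not pass (0.71, adjusted p = 0.0547), while without KO TAM 1 and WT TAM 2 it was called (adjusted p = 0.0123). Cd5l, Lrp1, Stab2, Scarf1 and Cxcl16 were named after their values were seen.

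Colec12 and Scara3, the other class A genes that were called, were lower in KO in both cultures. Colec12 read 7.70, 7.17 and 7.004 on KO TAM arrays, against 8.30, 8.997 and 8.48 on WT TAM arrays (-1.30 ± 0.19, adjusted p = 0.0011). It was 3.17-fold lower in KO macrophages than in WT macrophages (-1.67 ± 0.19, adjusted p = 0.000394). Scara3 was lower by less, at -0.84 ± 0.23 in TAMs and -0.82 ± 0.23 in macrophages. Its TAM call needed each of WT TAM 2 and KO TAM 2 and 3 (adjusted p up to 0.117 without 1 of them), and its macrophage call needed each macrophage array and KO TAM 2 (up to 0.137). Both genes were highest on WT TAM 2, the array with the highest stromal marker mean, and the stromal list was lower in KO in both cultures, as given above. Its part in these differences was not tested.

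Clec7a, which encodes the fungal glucan receptor dectin-1, was lower in KO macrophages than in WT macrophages (6.70 ± 0.06 and 8.19 ± 0.11, difference -1.48 ± 0.22, adjusted p = 0.00139). KO TAMs and WT TAMs averaged 8.99 ± 0.54 and 8.76 ± 0.26, a difference of 0.23 that did not pass. Its KO minus WT co-culture difference was 1.71 ± 0.30 (adjusted p = 0.0554), and 1.30 without KO TAM 1 and WT TAM 2 (adjusted p = 0.00471). Cd44, the hyaluronan receptor, was lower in KO TAMs than in WT TAMs (-0.84 ± 0.20, adjusted p = 0.0181), a call lost without WT TAM 1, WT TAM 3, KO TAM 2 or KO TAM 3 (adjusted p up to 0.0729). Lrp1, an endocytic receptor of the lipoprotein receptor family, was lower in KO TAMs (-0.76 ± 0.13, adjusted p = 0.00303), a call kept without each single array.

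Mrc1, Scarb2, Colec12 and Stab2 were higher in TAMs than in macrophages in both genotypes. The mannose receptor Mrc1 rose by 1.59 ± 0.27 in KO cells and by 1.98 ± 0.27 in WT cells. Scarb2, the lysosomal class B member LIMP-2, rose by 0.92 ± 0.21 in KO cells and by 1.19 ± 0.21 in WT cells, and the KO call was lost without KO macrophage 1, 2 or 3 or KO TAM 2 (adjusted p up to 0.079). Colec12 rose by 1.17 ± 0.19 in KO and 0.80 ± 0.19 in WT cells, the WT call lost without WT macrophage 1 or 3. The dim Stab2 rose by 0.48 ± 0.09 in KO and 0.36 ± 0.09 in WT cells. Its WT call was lost without WT macrophage 1 or 2 or WT TAM 1. Clec7a rose 4.88-fold in KO cells (2.29 ± 0.22, adjusted p = 0.00014) and did not pass in WT cells (0.58, adjusted p = 0.117). In all, 5 of 19 rose and 0 fell in each genotype, where 2.9% of all genes rose and 3.63% fell in KO cells, and 5.89% rose and 5.66% fell in WT cells. At an unadjusted limma p under 0.05 the falls were 0 in KO and 2 in WT cells, against 11.1% of all genes in each. Without KO TAM 1 and WT TAM 2 the counts were 7 higher and 1 lower in KO (9.68% of all genes called), and 8 higher and 1 lower in WT cells (18.3% called).

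**Figure D4:**
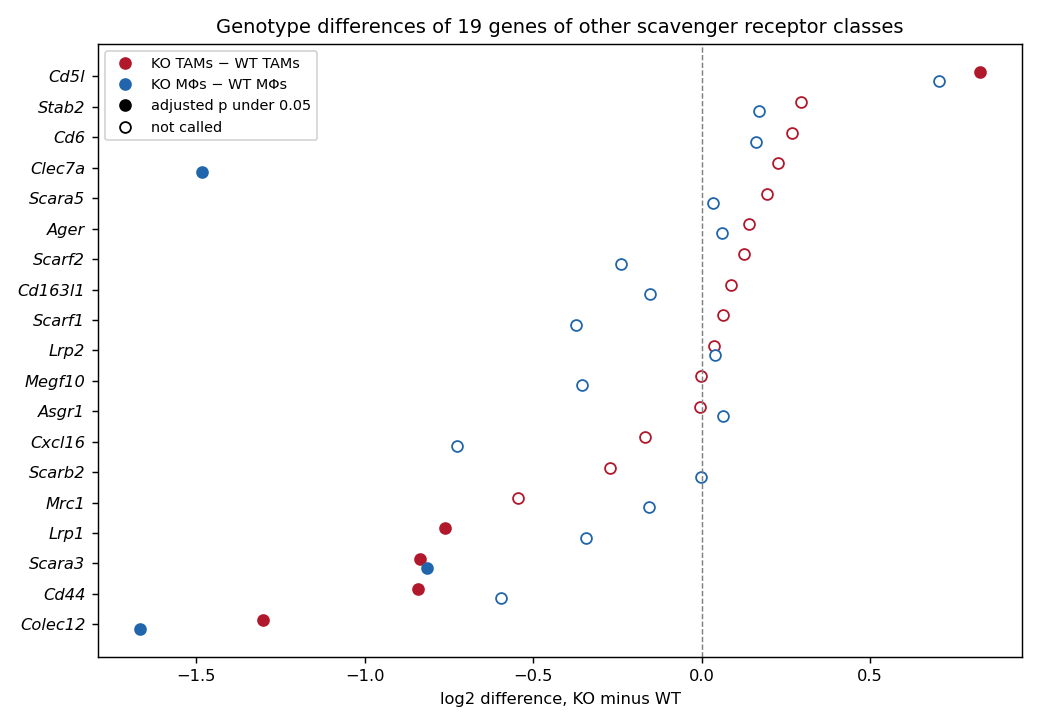
Log2 difference, KO minus WT, of the 19 genes of other scavenger receptor classes in TAMs (red) and in macrophages (blue), ordered by the TAM value and filled where the adjusted p was under 0.05. Cd5l is the 1 filled point right of 0, and Colec12 and Scara3 are filled left of 0 in both cultures.

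Genes of the membrane partners and kinases of CD36 were read from a list of 17, of which 16 were measured. CD36 works with the Toll-like receptors TLR2, TLR4 and TLR6, with integrins and the tetraspanins CD9 and CD81, and with Src-family kinases and Vav exchange factors. In KO TAMs against WT TAMs 5 of 16 were higher and 2 lower, where 12.2% of all genes were called, and 4 and 5 without KO TAM 1 and WT TAM 2, where 20.2% were. In KO macrophages against WT macrophages 1 was higher and 2 lower, where 11.3% of all genes were called, and 3 and 3 without those arrays, where 20.6% were. Cd9 was 5.34-fold lower in KO than in WT macrophages (7.10 ± 0.16 and 9.52 ± 0.21, difference -2.42 ± 0.29, adjusted p = 0.000557). In TAMs it averaged 8.05 ± 0.80 in KO and 9.90 ± 0.13 in WT cells (-1.85 ± 0.29, adjusted p = 0.00186). Vav2 was higher in KO cells in both cultures, by 0.78 ± 0.11 in TAMs and 0.64 ± 0.11 in macrophages, and Tlr6 was higher in KO TAMs by 0.70 ± 0.15 (adjusted p = 0.00858). All calls of Cd9, Vav2 and Tlr6 given here were kept without each single array. Vav1 was higher in KO TAMs by 0.32 ± 0.10 (adjusted p = 0.049), a call lost without any single array but KO TAM 1 (up to 0.16). The kinase gene Fyn, named after its value was seen, was lower in KO in both cultures (-0.58 ± 0.08 in TAMs and -0.60 ± 0.08 in macrophages).

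Between TAMs and macrophages, 1 of these 16 rose and 2 fell in KO cells, where 6.53% of all genes were called, and 2 rose and 4 fell in WT cells, where 11.5% were. Tlr4 rose by 0.47 ± 0.13 in KO cells and by 0.71 ± 0.13 in WT cells. The KO call (adjusted p = 0.0459) was lost without any 1 of 9 arrays (adjusted p up to 0.14), KO macrophage 1, 2 and 3 and KO TAM 1 and 2 among them. Itgb2, the common chain of leukocyte integrins, fell by 0.63 in KO cells and by 0.58 in WT cells. For Vav1, KO TAMs against KO macrophages gave -0.27 (adjusted p = 0.128), and it fell by 0.74 ± 0.10 in WT cells.

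Transcription factors known to act on these receptor genes were read from a list of 16, of which 13 were measured. PPAR-gamma with RXR is known to activate Cd36, and PU.1 (Spi1) acts on many macrophage promoters. In KO TAMs against WT TAMs 3 of 13 were higher and 0 lower, where 5.03% of all genes were called higher and 7.19% lower. In KO macrophages against WT macrophages 3 were higher and 0 lower, where 5.19% were called higher and 6.13% lower. At an unadjusted limma p under 0.05 it was 4 higher and 0 lower in each culture, against 25.1% of all genes in TAMs and 24.7% in macrophages. Rxra was higher in KO in both, by 0.39 ± 0.09 in TAMs (adjusted p = 0.0139, lost without WT TAM 3 at 0.0558) and 0.44 ± 0.09 in macrophages (adjusted p = 0.00774). Pparg read 8.78 ± 0.05 in KO and 8.17 ± 0.01 in WT macrophages (0.61 ± 0.15, adjusted p = 0.0211). That call was lost without any 1 of the 6 macrophage arrays (adjusted p up to 0.0722). Maf was higher in KO TAMs by 0.47 ± 0.12 (adjusted p = 0.0201), a call lost without KO TAM 2 or KO TAM 3 (up to 0.0848). Spi1 was higher in KO TAMs by 0.28 ± 0.08 (adjusted p = 0.0475), a call lost without any single array but KO TAM 1 (up to 0.133). Without KO TAM 1 and WT TAM 2 the counts were 4 higher and 1 lower in TAMs (20.2% of all genes called), and 6 higher and 0 lower in macrophages (20.6% called).

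In TAMs against macrophages 3 of these 13 rose and 1 fell in KO cells, where 6.53% of all genes were called. In WT cells 4 rose and 1 fell, where 11.5% were called. Spi1 fell, and Tfec, Nfe2l2 and Rxra rose, in both genotypes. Spi1 fell by 0.48 ± 0.08 in KO cells and by 0.81 ± 0.08 in WT cells, and both calls were kept without each single array. Tfec, a factor of the MiT family, rose by 1.35 ± 0.34 in KO cells (adjusted p = 0.036) and by 1.45 ± 0.34 in WT cells (adjusted p = 0.0172). Both Tfec calls were lost without single arrays, each macrophage array of its genotype among them (adjusted p up to 0.113 in KO and 0.0715 in WT cells). Nfe2l2, which encodes NRF2, rose by 0.45 ± 0.11 in KO cells, a call lost without KO macrophage 1, 2 or 3 or KO TAM 1 (adjusted p up to 0.104), and by 0.65 ± 0.11 in WT cells. Rxra rose by 0.37 ± 0.09 in KO cells and by 0.43 ± 0.09 in WT cells. Its KO call (adjusted p = 0.0269) was lost without KO macrophage 1 or 2 or KO TAM 1 or 2 (up to 0.11).

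Genes whose levels ran most like each receptor over the 12 arrays were taken from 1447 genes with an SD of at least 0.5, as a description of arrays that share groups. Cd36 was most like Kcnn4 (Pearson r = 0.98), Xist (0.98) and Gtse1 (0.97). Scarb1 was most like Fdft1 (0.96), Srebf2 (0.95) and Hsd17b7 (0.94), of which Fdft1 and Hsd17b7 encode enzymes of cholesterol synthesis and Srebf2 their transcription factor SREBP-2. Msr1 was most like Folr2 (0.99), Trem2 (0.98) and Il7r (0.98). Marco was most like Slc13a3 (0.99), Siglece (0.97) and Ppfibp2 (0.97). Cd68 was most like Pdgfc (0.99), Ccl12 (0.98) and Sash1 (0.98), and Stab1 most like Dab2 (0.98), Mocos (0.98) and Bhlhe40 (0.98). For Cd163 the highest were Gstt2 (0.94), Sidt2 (0.93) and Arrdc3 (0.93), and for the dim Olr1 they were lower, Gfra2 (0.79), Mapk11 (0.79) and Gpr141 (0.77).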

How the data were processed

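Gene expression was measured in 12 samples of mouse primary macrophages on single-channel arrays, after labelling of total RNA with a whole-transcript GeneChip kit, per the labels' protocols. The authors deposited 1 table of intensity values made with RMA, per the submitters' processing notes. These name limma too, with no version of either. RMA corrects background, forces the arrays to 1 distribution and summarises probe sets, which hides any shift common to most genes. The values were linear, judged from their range (3.57 to 13455), and log2 was taken without a pseudocount. Array medians were 31.3 to 33.3. The number of arrays limits the precision, and the table gives no detection calls.

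Of 41345 probe sets, 23521 had 1 gene symbol, 1814 several and 16010 none, and the last 2 kinds were left out. The brightest probe set was kept for genes with several, which left 22180 genes. One fit of 4 group means without covariates used limma 3.58.1 in R 4.3.3 (lmFit, eBayes, 8 residual degrees of freedom), with Benjamini-Hochberg adjustment over all genes. The median SD of a gene was 0.144 for KO TAM, 0.14 for WT TAM, 0.105 for KO macrophage and 0.096 for WT macrophage arrays. Since 1 spread was shared, TAM comparisons may get too small a p and macrophage comparisons too large a one. The fit was tested on simulated data. The members, the lists and the pair of arrays left out together were chosen with earlier results of these data known. By rule the text names all 8 receptors, of each list up to 6 genes called in a genotype comparison or in both co-culture comparisons, and the 3 genes most like each receptor. Deviations of same-numbered KO TAM and WT TAM arrays had r of 0.271, 0.247 and 0.033 for replicates 1, 2 and 3. For all other pairs of groups r lay between -0.056 and 0.020. The replicate number was not taken as a pairing in the main fit, and a fit with it as a block was among the alternatives. Whether same-numbered TAM arrays shared a batch is not stated by the labels and was not tested. Alternatives covered arrays left out, normalization, weights, pseudocount, dim genes, probe sets and threshold.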

Additional observations from a re-analysis of the deposited data

How the results depend on the processing

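The number of the 7 receptors called changed with the arrays and the spread used, and no called difference changed sign. Leaving out 1 array at a time gave 0 to 3 calls in KO TAMs against WT TAMs (1 with all arrays at equal weight), 1 to 2 in KO macrophages against WT macrophages (2 with all arrays), 2 to 5 in WT TAMs against WT macrophages (3 with all arrays) and 0 to 1 in the interaction (0 with all arrays). Without KO TAM 1 and WT TAM 2 together there were 5 calls between the TAM groups and 3 in the interaction. With array weights there were 4 between the TAM groups, 5 in WT TAMs against WT macrophages and 1 in the interaction. Between the TAM groups 0 were called with only their arrays fitted, and 2 after a repeated quantile normalization, median centring, a filter on dim genes or a robust trended prior. The dim gene filter gave 1 call between the macrophage groups and 4 in KO TAMs against KO macrophages, and an added threshold of 0.58 gave 1 between the macrophage groups. With the replicate number as a block, 1 receptor was called between the macrophage groups, since Olr1 was lost, and the other 4 counts did not move. Over 907 combinations of receptor, comparison and alternative, 856 kept their side of the threshold, 16 lost a call and 35 gained one. Over all genes, KO TAMs against WT TAMs gave 2710 calls with all arrays, 4480 without the 2 arrays, 4725 with weights and 638 with only their arrays. KO macrophages against WT macrophages gave 2512, and 4558, 4923 and 4716 under the same changes. The interaction gave 43, against 1496 without the 2 arrays and 761 with weights. Median centring turned the split between the TAM groups to 750 higher and 1953 lower, against 1116 higher and 1594 lower. The cause of these changes was not tested. Olr1 and Cd163 were dim, which limits what their arrays can show.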
